A study of Mus musculus with 8 samples.

Results

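Integrin and laminin subunit genes were followed through the first days of factor-induced reprogramming of mouse embryonic fibroblasts (MEFs). The members are the genes whose Ensembl identifier maps to a symbol of the form Itga, Itgb, Lama, Lamb or Lamc plus a subunit number or letter, which gave 37 of the 32108 genes in the table: 18 integrin alpha subunits, 8 integrin beta subunits and 11 laminin chains. The cells were 4F2A MEFs from male homozygous 13.5 dpc embryos. They carry a cassette of Oct4, Sox2, Klf4 and c-Myc that doxycycline switches on. RNA was taken on day 2 (D2), day 4 (D4), day 6 (D6) and day 8 (D8) after the drug was added on day 0, with 2 libraries a day and 8 in all. Every group therefore had the drug (2 µg/mL), knockout serum replacement and LIF (1000 U/mL) in medium renewed daily, and D2 is the earliest point analysed here, with no untreated library beside it. The sample titles carry the word Ctr, and the labels leave unsaid whether a day's 2 libraries stem from separate cultures and how many embryos were used, so p-values measure only the spread between these libraries, which may be technical.

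Integrins are cell surface receptors made of 1 alpha and 1 beta subunit. They bind extracellular matrix or other cells outside and the actin or keratin cytoskeleton inside, and the alpha subunit largely sets the ligand. Laminins are cross-shaped trimers of an alpha, a beta and a gamma chain that build basement membranes, and integrins with the alpha3, alpha6 and alpha7 subunits are their main integrin receptors. Fibroblasts are known for fibronectin receptors such as alpha5 beta1, while laminin-332, which contains Lama3 and Lamb3, and alpha6 beta4 are known from the basal side of epithelia. In bulk RNA, fewer cells of a type and less RNA per cell cannot be told apart.

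Gene coordinates are those of GENCODE M21 on the build the submitters name, mm10. Levels are given in CPM, a gene's reads scaled to a common library total of 1000000. The libraries held 19409936 to 20161021 counted reads, as recovered from the steps between the values, and 3 reads, the limit for a gene with no read, correspond to 0.149 to 0.155 CPM, which covers counting error only. The labelled cell type was checked against its markers: all 10 fibroblast markers passed the low-value filter, and their summed level was 25848 to 25850 CPM on D2, 40664 to 44057 on D4, 31607 to 34946 on D6 and 30854 to 33915 on D8. These markers did not move together, so the sum does not stand for each of them. On D8 against D2, 5 were higher (50%, beside 47.3% of all tested genes) and 3 lower (30%, beside 23.1%). The small-leucine-rich matrix proteoglycan Lum, 1 of those higher, averaged 844 ± 35.2 CPM on D8, against 11.3 ± 0.63 CPM on D2.

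A gene had to reach 1 CPM in 2 or more libraries to be tested, which kept 32 of the 37 members: 14 of 18 alpha subunits, 7 of 8 beta subunits and 11 of 11 laminin chains. The tests were limma's moderated tests on log2(CPM + 1) over all 15358 tested genes with Benjamini-Hochberg adjustment, and the threshold for a call was an adjusted p of 0.05. Any difference between the 4 days was called for 29 of the 32 tested members (90.6%), beside 80.4% of all tested genes. The uncalled members were Itga2b, Itgb2 and Lamb2, with adjusted p of 0.71, 0.21 and 0.064.

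More members fell than rose over the days, while on the deposited scale more rose than fell among all genes. In D8 against D2, 9 of 32 members were higher (28.1%, beside 47.3% of all tested genes) and 17 were lower (53.1%, beside 23.1%). In D4 against D2, 10 members were higher (31.2%, beside 40.9%) and 12 lower (37.5%, beside 21.7%). The median member changed by -0.25 in D8 against D2 on the log2 scale and the median of all tested genes by 0.17, so a member at 0 stood below the middle of the table. That middle depends on the scaling: it was -0.004 under median-of-ratios scaling and -0.054 under quantile normalization, with 50.9% and 45.1% of all calls higher, against 67.2% on the deposited scale. In D4 against D2 these medians were -0.013 and 0.11, and 65.3% of all calls were higher, against 52.6% under median-of-ratios scaling and 47.1% under quantile normalization.

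The last step moved the fewest members. In D6 against D4, 9 members were higher (28.1%, beside 25.2% of all tested genes) and 12 lower (37.5%, beside 12.6%), and the split was 7 higher and 14 lower under median-of-ratios scaling and 7 higher and 15 lower under quantile normalization. Of all calls in that step 66.7% were higher, against 46.9% and 47.7% under those scalings. In D8 against D6, 2 members were higher (6.25%, beside 4.72%) and 8 lower (25%, beside 4.39%). The count of higher members was 1 without the first D6 library or either D8 library. The count of lower members was 2 without the first D8 library, 3 without either D6 library, 5 without either D2 library and 2 with no intensity trend in the fit. Of the 10 calls, the rise of Lama3 and the falls of Lama1 and Lamb1 were made under all 17 alternatives. Neighbouring comparisons share the libraries of a day, so a gene that stands high on D4 alone is higher in one and lower in the next.

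**Figure D1:**
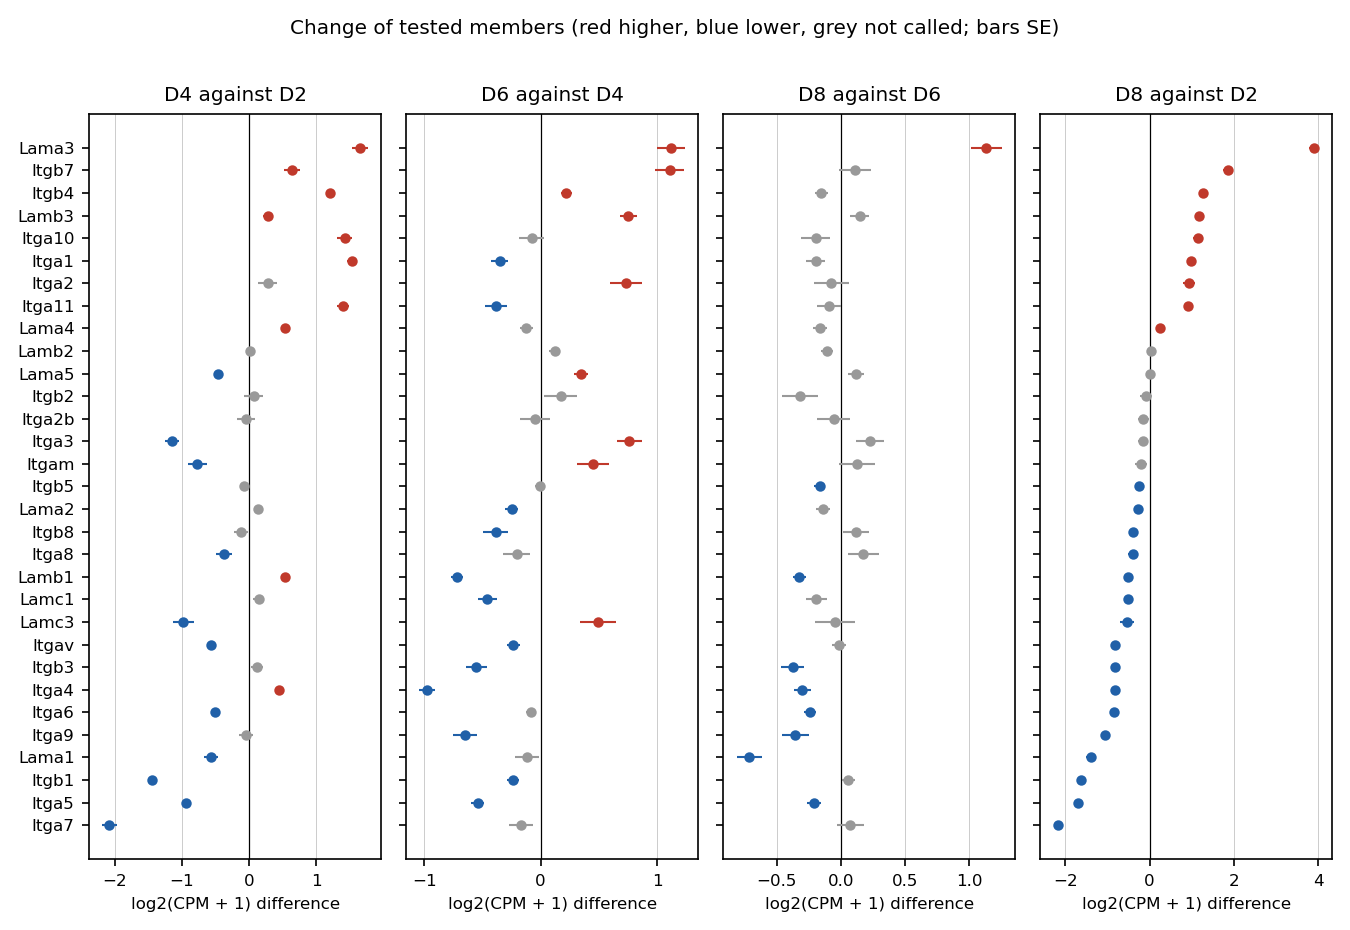
Difference of 31 of the 32 tested members on the log2(CPM + 1) scale in the 3 steps between neighbouring days and in D8 against D2, with bars for the SE of the fit and colours for the call at an adjusted p under 0.05 (red higher, blue lower, grey not called). Members are sorted by D8 against D2, with Lama3 (3.89) at the top and Itga7 (-2.17) at the bottom, and the x axes differ between panels.

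By day, 15 of the 32 tested members had their highest mean on D2, 9 on D4, 4 on D6 and 4 on D8. The lowest mean fell on D2 for 10, on D4 for 5, on D6 for 4 and on D8 for 13. The 4 members highest on D8 were Itgb7, Lama3, Lama5 and Lamb3.

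Start-site windows are shown for the members with the largest falls (Itga5, Itgb1) and rises (Itgb7, Lamb3) in D8 against D2 among the 23 member genes that have a window in the RefSeq table of build GRCm38.p6. Each runs 5′ to 3′ along the gene, with 250 bases before and 50 after the annotated start. Capitals mark matches to 5 motifs searched on both strands: AP-1 (TGANTCA), TEAD (GGAATG), the GC box (GGGCGG), the E-box (CACGTG) and a Sox core (CATTGTT).
Itga5, chr15:103366742-103367041, minus strand: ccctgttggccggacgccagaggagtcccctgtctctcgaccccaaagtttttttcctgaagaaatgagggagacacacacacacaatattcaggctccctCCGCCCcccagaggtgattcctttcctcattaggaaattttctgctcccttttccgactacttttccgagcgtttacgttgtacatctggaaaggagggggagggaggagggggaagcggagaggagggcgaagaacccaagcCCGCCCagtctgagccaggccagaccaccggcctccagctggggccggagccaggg
Itgb1, chr8:128685404-128685703, plus strand: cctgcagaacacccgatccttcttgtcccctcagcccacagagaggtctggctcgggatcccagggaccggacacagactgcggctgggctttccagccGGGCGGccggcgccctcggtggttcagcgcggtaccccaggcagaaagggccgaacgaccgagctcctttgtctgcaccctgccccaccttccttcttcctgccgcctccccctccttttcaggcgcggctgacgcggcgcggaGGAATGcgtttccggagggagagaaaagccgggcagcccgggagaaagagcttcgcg
Itgb7, chr15:102231886-102232185, minus strand: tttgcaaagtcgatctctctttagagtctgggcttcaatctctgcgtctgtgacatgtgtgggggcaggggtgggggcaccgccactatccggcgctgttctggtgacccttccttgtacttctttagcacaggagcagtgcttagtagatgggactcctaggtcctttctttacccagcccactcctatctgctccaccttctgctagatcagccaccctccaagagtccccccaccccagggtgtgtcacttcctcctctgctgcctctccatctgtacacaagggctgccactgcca
Lamb3, chr1:193301993-193302292, plus strand: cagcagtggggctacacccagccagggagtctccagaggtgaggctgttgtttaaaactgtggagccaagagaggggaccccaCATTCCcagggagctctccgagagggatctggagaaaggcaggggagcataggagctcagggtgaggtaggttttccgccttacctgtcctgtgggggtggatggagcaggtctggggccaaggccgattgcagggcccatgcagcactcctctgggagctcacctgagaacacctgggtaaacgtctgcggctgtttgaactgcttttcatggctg
The Itga5 window held 2 GC boxes, that of Itgb1 held 1 GC box and 1 TEAD match close to the start, that of Lamb3 held 1 TEAD match and that of Itgb7 held no match. Lamb3 has a second window upstream that overlaps the printed one and held no match. Over the 26 windows of the 23 genes, the GC box was found in 12, the AP-1 letters in 3 (Itga3, Itga9 and Itgax), the TEAD letters in 3 (Itga10, Itgb1 and Lamb3), the Sox core in 1 (Itga8) and the E-box in none. Among all 32851 windows of the table the shares were 35.7% for the GC box, 7.81% for AP-1, 14.7% for TEAD, 3.78% for the Sox core and 7.15% for the E-box. The median GC content was 58.8% over member windows and 52.7% over all windows. A match describes letters in the window and is not a measured site.

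Among the alpha subunits that read the RGD tripeptide of fibronectin and vitronectin, 3 of 4 were lower in D8 against D2. Of all tested genes, 23.1% were lower in that comparison. Itga5, the fibronectin receptor subunit, had 449 and 440 CPM on D2, 225 and 237 on D4, 152 and 164 on D6 and 132 and 142 on D8. No 2 days overlapped, and each day stood below the one before it. The level on D8 was 0.308 times that on D2 (log2 difference -1.69 ± 0.054, SE, adjusted p = 1.3e-11 by limma). The fall in D8 against D6, -0.21 ± 0.054 with an adjusted p of 0.036, was not called under 9 of the 17 alternatives, among them leaving out either D2 library, either D6 library or the first D8 library.

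Itgav, the vitronectin receptor subunit that pairs with several beta chains, had 365 and 370 CPM on D2, 245 and 252 on D4, 203 and 218 on D6 and 197 and 220 on D8. Its fall lay before D6, and the D6 and D8 libraries overlapped. The D8 level was 0.568 times the D2 level (log2 difference -0.82 ± 0.057, adjusted p = 2.8e-08 by limma). Its fall in D6 against D4 (-0.24 ± 0.057, adjusted p = 0.0056) was not called without the first D6 library (adjusted p = 0.065).

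Itga8, a receptor subunit for nephronectin, was low throughout, at 6.2 to 10.5 CPM over all libraries, and averaged 7.64 ± 0.209 CPM on D8, against 10.4 ± 0.181 CPM on D2 (log2 difference -0.40 ± 0.12, adjusted p = 0.008 by limma). Its fall in D4 against D2 was not called without either D2 library or without the first D4 library. Itga2b, the platelet fibrinogen receptor subunit, stayed between 3.79 and 5.13 CPM and had no call on the deposited scale. In D8 against D2 it was called lower under median-of-ratios scaling (-0.30, adjusted p = 0.047) and quantile normalization (-0.60, adjusted p = 0.00095). The 6 megakaryocyte and platelet markers summed to 19.5 to 19.6 CPM on D2, 9.53 to 11.6 on D4, 7.54 to 8.88 on D6 and 8.79 to 8.87 on D8, mostly from Ppbp. Gp9 was at 0 in every library, and Gp6 did not exceed 0.0273 CPM.

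All 4 collagen-binding alpha subunits were higher in D8 against D2, beside 47.3% of all tested genes, and 3 of them reached their highest mean on D4. Itga1, a receptor subunit for collagen IV and I, had 20.8 and 21.3 CPM on D2, 58.8 and 66.5 on D4, 51.9 and 45.7 on D6 and 41.9 and 42.8 on D8. The D4 libraries stood above all others, and all later libraries above D2. The rise in D4 against D2 was 2.97-fold (log2 difference 1.53 ± 0.075, adjusted p = 1.6e-09 by limma), and the level in D8 was 2.01 times that in D2 (0.97 ± 0.075, adjusted p = 7.3e-08).

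Itga11, a fibroblast receptor subunit for collagen I, followed a like course with 19.9 and 19.6 CPM on D2, 48.4 and 59.5 on D4, 40.3 and 41.3 on D6 and 35.4 and 41.5 on D8. Its rise in D4 against D2 was 2.73-fold (log2 difference 1.40 ± 0.093, adjusted p = 3.3e-08 by limma). Its fall in D6 against D4 (-0.39 ± 0.093, adjusted p = 0.0059) was not called without the second D4 library (adjusted p = 0.069).

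Itga10, a collagen receptor subunit known from cartilage, had 1.61 and 1.73 CPM on D2, 6.06 and 6.23 on D4, 6.10 and 5.45 on D6 and 4.65 and 5.17 on D8. Its step in D4 against D2 was 3.67-fold (log2 difference 1.42 ± 0.11, adjusted p = 1.4e-07 by limma), and the later steps were not called. Itga2, the other collagen I receptor subunit of the group, had 1.14 and 0.946 CPM on D2, 1.30 and 1.65 on D4, 3.13 and 3.07 on D6 and 3.37 and 2.46 on D8. It was the 1 member of the group whose rise was called in D6 against D4 (2.1-fold, log2 difference 0.73 ± 0.14, adjusted p = 0.0012) and not in D4 against D2 (0.28 ± 0.14, adjusted p = 0.1). Itga2 and Itga1 lie side by side on the minus strand, at chr13:114833081-114932100 and chr13:114953096-115101964, 21.0 kb apart with no annotated gene between them.

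All 3 laminin-binding alpha subunits fell in D4 against D2, beside 21.7% of all tested genes, and they parted after that. Itga7, the laminin receptor subunit of muscle (chr10:128933818-128958282, plus strand), had 47.8 and 46.1 CPM on D2, 10.2 and 10.5 on D4, 10.4 and 7.98 on D6 and 9.84 and 9.46 on D8. The D2 libraries stood apart, and those of D6 overlapped with D4 and with D8. Its D8 level was 0.205 times that of D2 (log2 difference -2.17 ± 0.10, adjusted p = 6.9e-10 by limma). Of 6 skeletal muscle markers, Des moved the same way, with 1.52 ± 0.26 CPM on D8, against 6.92 ± 0.0728 CPM on D2, while Myod1 was at 0 in every library. Those markers summed to 6.87 to 7.25 CPM on D2, 1.30 to 1.60 on D4, 1.54 to 1.95 on D6 and 1.55 to 1.97 on D8, and their part in the change of Itga7 was not tested.

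Itga6, which pairs with beta1 or beta4, had the most RNA per kb of exon of the 3, with 18.9 CPM per kb on D2. It had 170 and 171 CPM on D2, 119 and 120 on D4, 113 and 112 on D6 and 93.2 and 96.8 on D8. Each day stood below the day before it, and the D8 level was 0.557 times the D2 level (log2 difference -0.84 ± 0.046, adjusted p = 2.6e-09 by limma). Its fall in D8 against D6 (-0.24 ± 0.046, adjusted p = 0.0081) was not called without the first D6 or the first D8 library.

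Itga3, the subunit of the laminin-332 and laminin-511 receptor alpha3 beta1, was lowest on D4, with 12.4 and 12.5 CPM on D2, 4.84 and 5.31 on D4, 10.3 and 8.39 on D6 and 11.7 and 10.5 on D8. The D4 libraries stood below all others, and the D8 libraries under those of D2. The change was -1.15 ± 0.11 in D4 against D2 (adjusted p = 1.1e-06 by limma) and 0.76 ± 0.11 in D6 against D4 (adjusted p = 0.00016). In D8 against D2 it was -0.16 ± 0.11 and not called (adjusted p = 0.22), while it was called lower under median-of-ratios scaling (-0.33, adjusted p = 0.014) and quantile normalization (-0.50, adjusted p = 0.0016).

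The pair of alpha subunits that bind VCAM-1, tenascin and osteopontin both fell in D8 against D2, beside 23.1% of all tested genes. Itga4 had 39.1 and 37.8 CPM on D2, 55.7 and 50.3 on D4, 26.5 and 26.3 on D6 and 21.3 in both D8 libraries, so it stood highest on D4. It rose in D4 against D2 (0.45 ± 0.066, adjusted p = 5.6e-05 by limma) and fell in D6 against D4 to 0.499 times the D4 level (-0.98 ± 0.066, adjusted p = 3.9e-07). Itga9 had 18.5 and 18.1 CPM on D2, 16.8 and 18.5 on D4, 11.7 and 10.1 on D6 and 7.62 and 9.02 on D8. Its fall began after D4, and its D8 level was 0.455 times its D2 level (-1.05 ± 0.10, adjusted p = 8e-07). The falls of both genes in D8 against D6 (adjusted p of 0.017 for Itga4 and 0.049 for Itga9) were each lost when any 1 of the 4 libraries of those days was left out, and that of Itga9 also without either D2 library.

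Of the 5 leukocyte alpha subunits, Itgam alone passed the filter. Itgam, the alpha subunit of complement receptor 3 on myeloid cells, had 7.91 and 10.3 CPM on D2, 4.32 and 5.52 on D4, 6.89 and 7.19 on D6 and 7.01 and 8.59 on D8. The D4 libraries were the low ones (log2 difference in D4 against D2 -0.77 ± 0.14, adjusted p = 0.00033 by limma), and the rise in D6 against D4 was not called without the first D4 or either D6 library, with no filter, or under median-of-ratios scaling (adjusted p = 0.052) and quantile normalization (adjusted p = 0.15). In D8 against D2, Itgam had no call on the deposited scale (-0.19, adjusted p = 0.23 by limma) and was called lower under median-of-ratios scaling and quantile normalization. Itgb2, the beta subunit of the leukocyte integrins, ranged over 4.87 to 7.60 CPM and had no call, though it was called lower in D8 against D2 under quantile normalization (-0.52, adjusted p = 0.0052).

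Itgal, the alpha subunit of LFA-1, did not pass the filter, since 1 library alone exceeded 1 CPM: it had 0.992 and 3.54 CPM on D2 and 0.563 to 0.871 CPM in the other libraries. Itgax, Itgad and Itgae stayed at 0.0496 to 0.412, 0.138 to 0.361 and 0.0498 to 0.460 CPM. Haematopoietic markers were present at a low level, with 7 of 10 past the filter and sums of 58.0 to 82.7 CPM on D2, 77.2 to 80.2 on D4, 75.8 to 83.2 on D6 and 58.0 to 65.7 on D8, led by Lyz2. Ptprc, the pan-leukocyte surface phosphatase, had 2.15 to 3.38 CPM, and the T cell gene Cd3e did not exceed 0.0512 CPM. The second D2 library, with 3.54 CPM of Itgal, had the haematopoietic sum of 82.7 CPM, against 58.0 CPM in the first. The second D6 library, however, had a sum of 83.2 CPM with 0.563 CPM of Itgal. The part of haematopoietic cells in the levels of these members was not tested.

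The beta subunits split in D8 against D2. Of the 7 tested, 2 were higher (28.6%, beside 47.3% of all tested genes) and 4 lower (57.1%, beside 23.1%). Itgb1, the common partner of most matrix-binding alpha subunits, had 2530 and 2484 CPM on D2, 928 and 907 on D4, 753 and 803 on D6 and 828 and 793 on D8. The D2 libraries stood far above the rest, and those of D6 and D8 overlapped. Its D4 level was 0.366 times its D2 level (log2 difference -1.45 ± 0.054, adjusted p = 1.2e-10 by limma), and the D8 level was 0.323 times the D2 level (-1.63 ± 0.054, adjusted p = 1.7e-11).

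Itgb4, which pairs with alpha6 and anchors keratin filaments in hemidesmosomes, lies at chr11:115974709-116008412 on the plus strand. It moved the other way, with 336 and 347 CPM on D2, 778 and 794 on D4, 911 and 920 on D6 and 801 and 847 on D8. All later libraries stood above D2. Its rise in D4 against D2 was 2.3-fold (log2 difference 1.2 ± 0.049, adjusted p = 3e-10 by limma) and its D8 level was 2.41 times the D2 level (1.27 ± 0.049, adjusted p = 8e-11). The smaller rise in D6 against D4 (0.22 ± 0.049, adjusted p = 0.0036) was not called under median-of-ratios scaling (0.14, adjusted p = 0.058).

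Itgb7, a beta subunit known from lymphocytes that pairs with alpha4 or alphaE, had 2.73 and 1.94 CPM on D2, 4.14 and 4.16 on D4, 10.5 and 9.77 on D6 and 10.3 and 11.7 on D8. It rose in the first 2 steps and not in the third, and its D8 level was 4.71 times its D2 level (log2 difference 1.85 ± 0.12, adjusted p = 1.8e-08 by limma). Of its alpha partners, Itga4 fell in D8 against D2 and Itgae did not exceed 0.460 CPM.

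Itgb3, the beta subunit of the platelet and vitronectin receptors, had 42.0 and 44.9 CPM on D2, 47.0 and 47.1 on D4, 29.1 and 34.5 on D6 and 22.3 and 26.3 on D8. Its level fell after D4, and D8 was at 0.56 times D2 (log2 difference -0.82 ± 0.09, adjusted p = 2.6e-06 by limma). Itgb5, another partner of alphaV, had a much flatter course with 294 and 296 CPM on D8, against 349 in both D2 libraries, a ratio of 0.845 (-0.24 ± 0.044, adjusted p = 0.00025) that was not called under quantile normalization (-0.081, adjusted p = 0.11). Itgb8, an activator of latent TGF-beta with alphaV, averaged 10.8 ± 0.257 CPM on D8, against 14.4 ± 0.78 CPM on D2 (-0.39 ± 0.10, adjusted p = 0.0046). Itgb6, the other TGF-beta-activating partner of alphaV, was at 0 in both D4 libraries and at most at 0.205 CPM elsewhere.

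**Figure D2:**
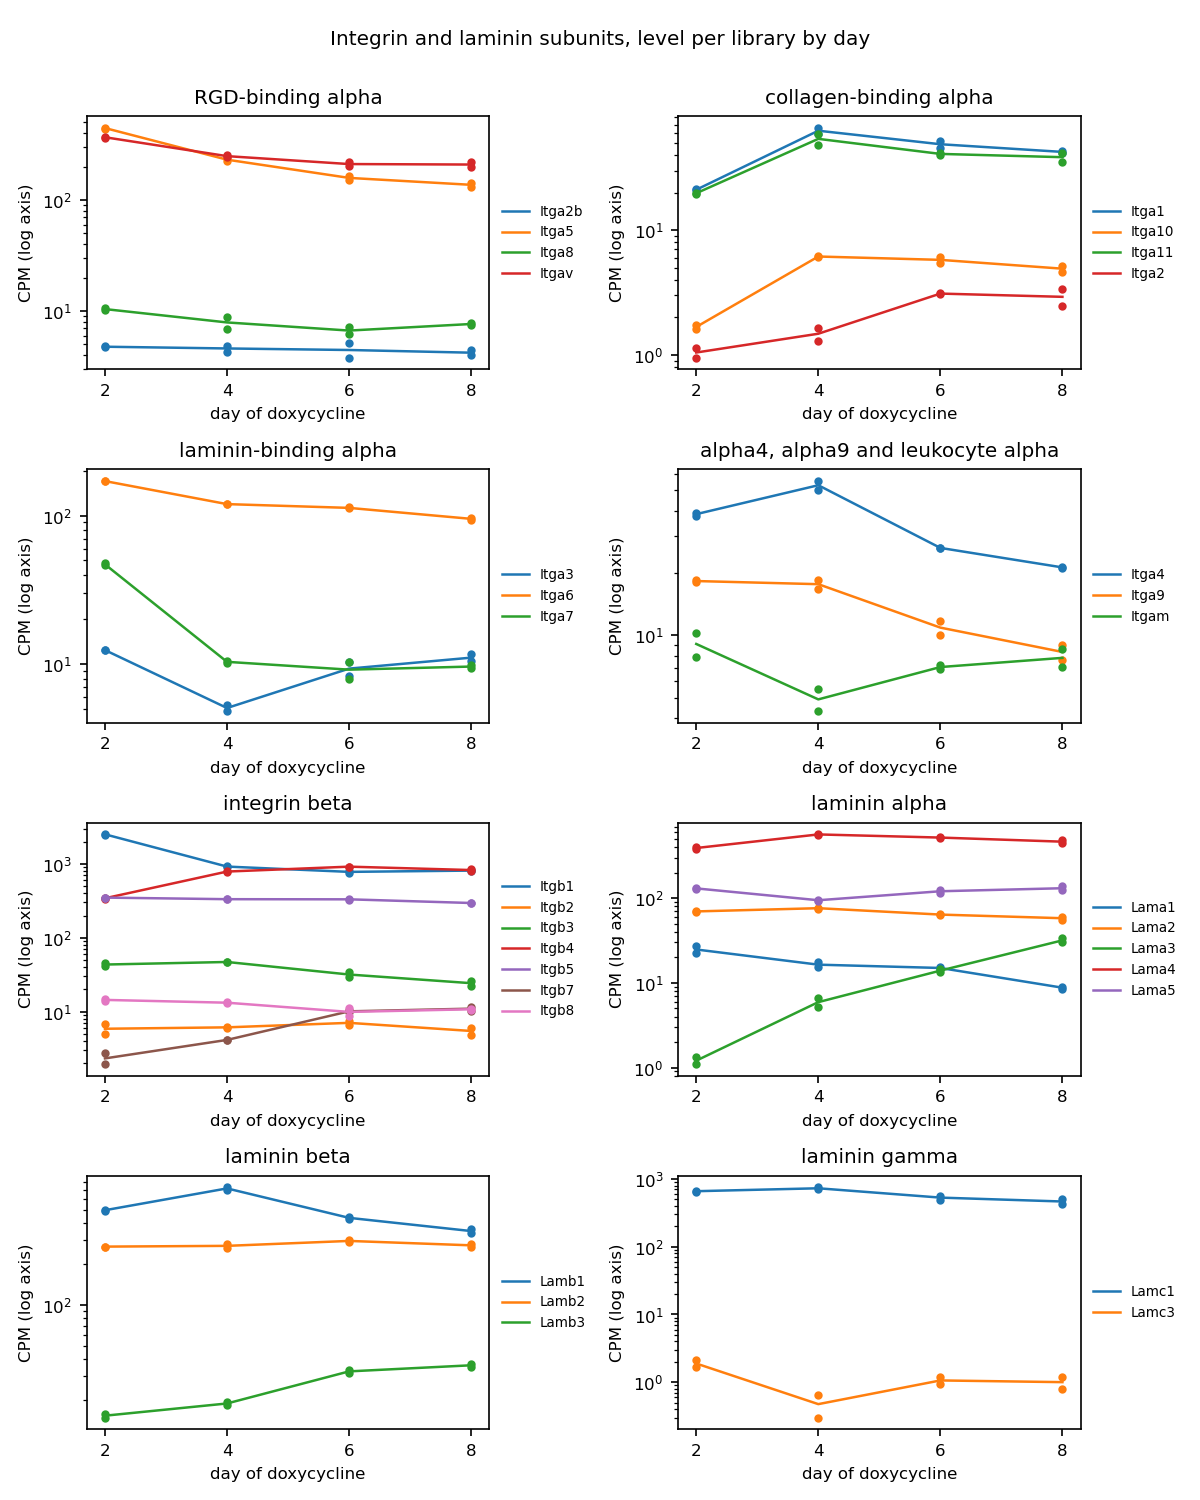
Level of 31 of the 32 tested members in CPM on a log axis against day of doxycycline, with points for the 2 libraries of a day, lines through the day means, and 1 panel for each class of subunit. Itgb1 falls to 918 CPM on D4, against 2507 CPM on D2, Itgb4 climbs to 916 CPM on D6, and Lama3 climbs at every step to 31.7 CPM on D8.

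Laminin alpha chains differed in course. In D8 against D2, 2 of 5 were higher (40%, beside 47.3% of all tested genes) and 2 lower (40%, beside 23.1%). Lama3, the alpha chain of laminin-332 (chr18:12333819-12583013, plus strand), had 1.09 and 1.32 CPM on D2, 5.17 and 6.67 on D4, 14.5 and 13.4 on D6 and 30.1 and 33.4 on D8. No 2 days overlapped, and it was the only member called higher in all 3 steps (1.64 ± 0.12, 1.12 ± 0.12 and 1.13 ± 0.12, adjusted p of 7.6e-08, 1.4e-05 and 0.00021 by limma). Its D8 level was 26.3 times its D2 level (log2 difference 3.89 ± 0.12, adjusted p = 8.7e-12).

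Lama1, the alpha chain of the embryonic laminin-111, had 22.5 and 27.0 CPM on D2, 15.2 and 17.6 on D4, 15.2 and 14.7 on D6 and 8.50 and 9.02 on D8. It fell in D4 against D2 (-0.56 ± 0.10, adjusted p = 0.00029 by limma) and again in D8 against D6 (-0.71 ± 0.10, adjusted p = 0.0017), and D8 was at 0.354 times D2. Lama4, the alpha chain of vascular and mesenchymal laminin-411, had 381 and 400 CPM on D2, 572 and 559 on D4, 526 and 511 on D6 and 443 and 485 on D8. It was highest on D4 (1.45-fold over D2, log2 difference 0.53 ± 0.054, adjusted p = 1.8e-06). Its call as higher in D8 against D2 (0.25 ± 0.054, adjusted p = 0.0011) was lost under median-of-ratios scaling (0.058, adjusted p = 0.38).

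Lama5, the alpha chain of the widespread laminin-511, had 132 and 129 CPM on D2, 93.2 and 95.7 on D4, 126 and 115 on D6 and 137 and 124 on D8. It too was lowest on D4, with -0.46 ± 0.059 in D4 against D2 (adjusted p = 1.6e-05 by limma) and 0.35 ± 0.059 in D6 against D4 (adjusted p = 0.00055). In D8 against D2 it had no call on the deposited scale and was called lower under median-of-ratios scaling (-0.18, adjusted p = 0.013). Lama2, the alpha chain of muscle and nerve laminin-211, moved little, at 55.8 to 77.3 CPM over all libraries. It was lower in D8 against D2 with a ratio of 0.831 (-0.26 ± 0.056, adjusted p = 0.00086).

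Among the 3 laminin beta chains, 1 rose (33.3%, beside 47.3% of all tested genes) and 1 fell (33.3%, beside 23.1%) in D8 against D2. Lamb1, the beta chain of laminin-111, laminin-411 and laminin-511, had 503 and 492 CPM on D2, 706 and 734 on D4, 445 and 430 on D6 and 337 and 362 on D8. It peaked on D4 (1.45-fold over D2, log2 difference 0.53 ± 0.051, adjusted p = 1.1e-06 by limma) and fell in both later steps (-0.72 ± 0.051 with an adjusted p of 5.3e-07, then -0.32 ± 0.051 with an adjusted p of 0.0033). Lamb2, the beta chain of synaptic and kidney laminins, ranged over 265 to 299 CPM and had no call on the deposited scale. In D8 against D2 it was called lower under median-of-ratios scaling (-0.16, adjusted p = 0.017) and higher under quantile normalization (0.13, adjusted p = 0.027).

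Lamb3, the beta chain of laminin-332, had 14.9 and 15.8 CPM on D2, 18.4 and 19.4 on D4, 33.3 and 31.8 on D6 and 37.0 and 35.1 on D8. Its main rise was in D6 against D4 (1.72-fold, log2 difference 0.75 ± 0.072, adjusted p = 5.4e-06 by limma), and D8 was at 2.35 times D2 (1.18 ± 0.072, adjusted p = 7.1e-09). The small rise in D4 against D2 (0.28 ± 0.072, adjusted p = 0.0039) was not called under quantile normalization (0.07, adjusted p = 0.42).

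Among the laminin gamma chains, Lamc1 and Lamc3 were lower in D8 against D2, beside 23.1% of all tested genes. Lamc1, the gamma chain of most laminins, had 648 and 673 CPM on D2, 703 and 755 on D4, 495 and 567 on D6 and 424 and 506 on D8, and the D6 and D8 libraries overlapped. The D8 level was 0.704 times the D2 level (log2 difference -0.51 ± 0.081, adjusted p = 8.1e-05 by limma).

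Lamc3 passed the filter through both D2 libraries, 1 of D6 and 1 of D8, with 1.66 and 2.12 CPM on D2, 0.649 and 0.301 on D4, 1.18 and 0.946 on D6 and 1.21 and 0.795 on D8. Its level on D4 was 0.251 times that on D2 (-0.98 ± 0.16, adjusted p = 0.00012 by limma). The fall in D8 against D2 (-0.53 ± 0.16, adjusted p = 0.0081) was not called without the second D2 or the second D8 library.

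Levels of different genes are compared per kb of exon, the union of each gene's annotated exons in GENCODE M21, as a description. Integrin alpha subunits summed to 166.7 and 165.9 CPM per kb on D2, 106.7 and 112.8 on D4, 84.6 and 86.9 on D6 and 75.2 and 81.2 on D8. Beta subunits summed to 777 and 768 CPM per kb on D2, 445 and 441 on D4, 421 and 432 on D6 and 410.2 and 409.7 on D8. Both sums were highest on D2 and their libraries did not overlap with those of other days.

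Within the alpha sum, Itga5 held 54.2% ± 0.643 on D2, 42.6% ± 0.137 on D4, 37.4% ± 1.2 on D6 and 35.5% ± 0.0681 on D8 (SD, n = 2 a day). Itgav held the second place on every day with 24.8% on D8, against 20.6% on D2. The collagen receptor subunit Itga11 held 9.57% ± 0.556 on D8, against 2.32% ± 0.0217 on D2. Within the beta sum, Itgb1 held 79.5% ± 0.388 on D2, 50.7% ± 0.527 on D4, 44.7% ± 1.17 on D6 and 48.4% ± 1.43 on D8, and Itgb4 held 6.31% ± 0.194 on D2, 25.3% ± 0.499 on D4, 30.6% ± 0.380 on D6 and 28.7% ± 1.15 on D8.

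**Figure D3:**
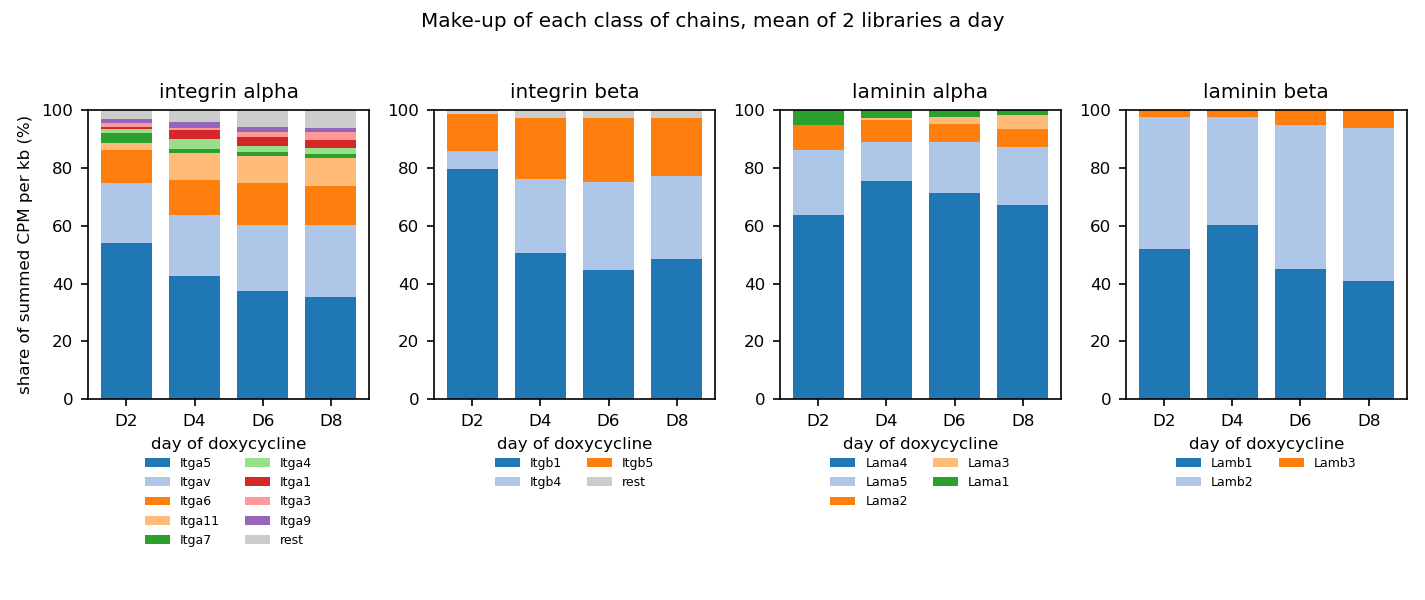
Share of each chain in the summed CPM per kb of its class, in percent, as the mean of the 2 libraries of a day, for integrin alpha, integrin beta, laminin alpha and laminin beta. Itgb1 takes 44.7% of the beta sum on D6, against 79.5% on D2, and Lama4 holds 63.8% to 75.5% of the laminin alpha sum.

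Per kb, the ratio of Itgb4 to its only known alpha partner Itga6 was 2.58 ± 0.0407 on D2, 8.48 ± 0.0942 on D4, 10.5 ± 0.163 on D6 and 11.2 ± 0.140 on D8. The ratio of Itgb4 to Itgb1 was 0.0794 ± 0.00283 on D2, 0.498 ± 0.015 on D4, 0.685 ± 0.0265 on D6 and 0.592 ± 0.0413 on D8. The RNA for beta4 was thus in excess of that for alpha6 on every day, and the gap was smallest on D2.

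Of the laminin chains per kb, Lama4 led the alpha chains on every day, with 63.8% of their sum on D2, 75.5% on D4, 71.3% on D6 and 67.0% on D8. Lama3 held 0.221% ± 0.0236 on D2, 0.888% ± 0.162 on D4, 2.15% ± 0.0720 on D6 and 5.15% ± 0.195 on D8. Lamb1 led the beta chains on D2 and D4 with 51.9% and 60.4%, and Lamb2 led on D6 and D8 with 49.8% and 52.6%. The ratio of Lamb1 to Lamb2 was 0.781 ± 0.0132 on D8, against 1.14 ± 0.0178 on D2.

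The ratio of Lama3 to Lamb3 per kb was 0.0482 ± 0.00435 on D2, 0.192 ± 0.0272 on D4, 0.264 ± 0.0072 on D6 and 0.543 ± 0.0606 on D8. The gap between these chains thus narrowed on every day. For the known trimers, the least abundant chain per kb was read as a description of the RNA, since trimers were not measured. In laminin-411 the least abundant chain was Lama4 on D2, D4 and D6, at 32.4, 46.8 and 43.0 CPM per kb, and Lamb1 on D8, at 35.3 CPM per kb. In laminin-511 it was Lama5 on every day, at 8.29 to 11.5 CPM per kb, and in laminin-111 Lama1, at 0.905 CPM per kb on D8, against 2.56 CPM per kb on D2.

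**Figure D4:**
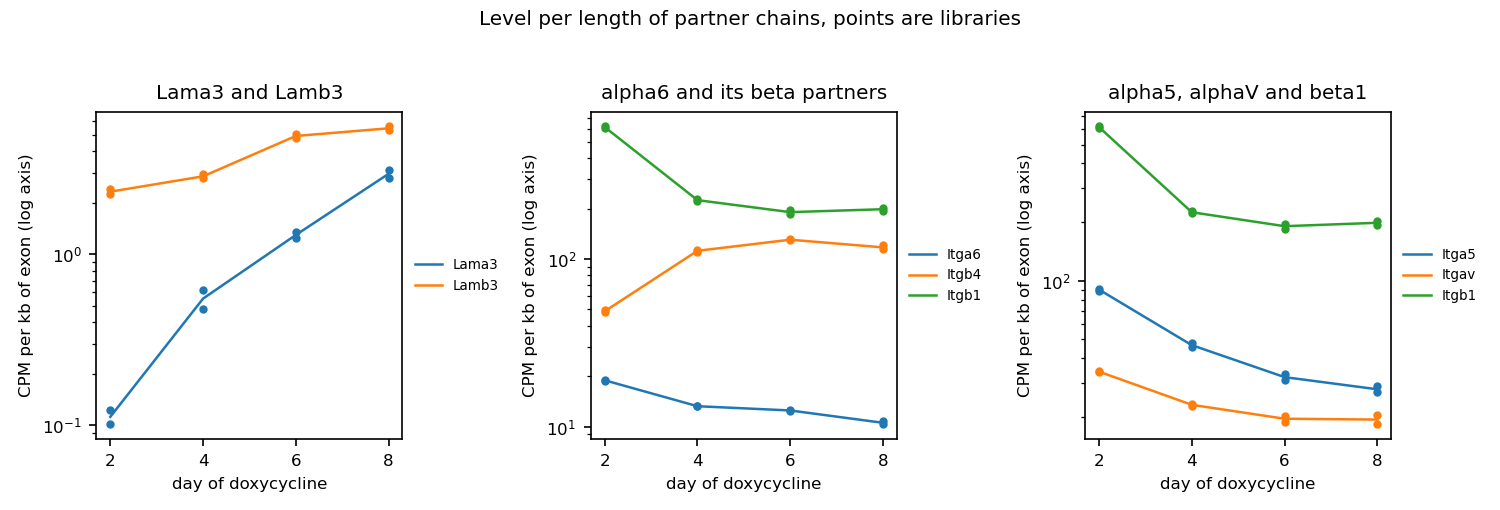
Level per kb of exon on a log axis against day, for Lama3 and Lamb3, for alpha6 with its partners beta4 and beta1, and for alpha5 and alphaV with beta1; points are libraries and lines join day means. Lama3 reaches 2.95 CPM per kb on D8 and Lamb3 5.45 CPM per kb.

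Epithelial markers were read beside Itgb4, Lama3 and Lamb3, which were higher in D8 against D2. Itga6, the alpha partner of beta4, was lower in that comparison (-0.84), and Itga3 had no call on the deposited scale (-0.16). Of 10 markers, 5 passed the filter, and 4 of these were higher in D8 against D2 (80%, beside 47.3% of all tested genes). Of those 4, 1 passed the filter only through D6 and D8 libraries, which favours a call as higher. The 10 summed to 35.1 to 36.8 CPM on D2, 66.4 to 86.1 on D4, 140 to 171 on D6 and 196 to 210 on D8. The keratin Krt8 averaged 125 ± 13 CPM on D8, against 2.40 ± 0.336 CPM on D2, and E-cadherin Cdh1 averaged 36.6 ± 5.87 CPM on D8, against 5.07 ± 0.899 CPM on D2. Krt14, the keratin partner of basal epithelia, was the 1 tested marker with no call. Epcam, Esrp1, Krt18, Krt5 and Cldn7 stayed under 1 CPM in every library, and Esrp1 was at 0 through D4. The part of epithelial cells in these changes was not tested. Of the 4 endothelial markers tested of 8, 3 were higher (Tek, Tie1 and Pecam1) and 1 lower (Kdr) in D8 against D2. These are shares of 75% and 25%, beside 47.3% and 23.1% of all tested genes. Tie1 passed the filter only through the D8 libraries, and Pecam1 only through 1 library of D6 and 1 of D8, which favours a call as higher. The 8 summed to 69.4 to 71.8 CPM on D2, 104.2 to 104.3 on D4, 148 to 160 on D6 and 165 to 166 on D8, nearly all of it Tek, and Kdr averaged 1.00 ± 0.251 CPM on D8, against 4.32 ± 0.223 CPM on D2, while Cdh5, Cldn5 and Emcn did not exceed 0.448 CPM. Schwann and neural crest markers summed to 3.41 to 6.46 CPM over all libraries, and the 8 pluripotency markers to 4.15 to 4.55 CPM on D8, against 0.700 to 0.924 CPM on D2, chiefly Fbxo15.

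Overlapping genes bear on some members, because the strand setting of the counting is not given. Pelo lies inside Itga1 on the same strand and had 10.98 to 13.14 CPM in all libraries, Cerkl overlaps Itga4 on the other strand with 3.94 to 7.92 CPM, and Haspin overlaps Itgae with 3.19 to 8.07 CPM. Hsd11b1 and G0s2 lie within the Lamb3 span on the other strand, at up to 2.36 and 1.02 CPM. Reads of such pairs may be split or shared.

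Other genes of the pathway were counted in 5 lists. Cytoplasmic activators and adaptors of integrins mostly fell in D8 against D2. Of 45 tested of 49, 8 were higher (17.8%, beside 47.3% of all tested genes) and 26 lower (57.8%, beside 23.1%). The number higher was 4 under median-of-ratios scaling, and the median log2 difference on the deposited scale was -0.33. Vcl, vinculin of focal adhesions, had 1009 and 998 CPM on D2, 220 and 235 on D4, 119 and 133 on D6 and 111 and 118 on D8. No D8 library came near D2 (log2 difference -3.12, adjusted p = 1.4e-13 by limma). Zyx, zyxin, fell to 214 ± 11.5 CPM on D8, against 872 ± 1.85 CPM on D2 (-2.02, adjusted p = 7.5e-12), and the crosslinker Actn1 to 227 ± 10.7 CPM, against 1044 ± 7.54 CPM (-2.20, adjusted p = 4.3e-13). The falls of Filip1l, Parvb and Tgfb1i1 were -2.32, -1.70 and -1.58 on the log2 scale. The gene with the most CPM in the list, the actin crosslinker Flna, averaged 961 ± 9.32 CPM on D8, against 2726 ± 1.95 CPM on D2. The small GTPase Rap1a, which activates integrins, was called higher in D8 against D6 (0.29, adjusted p = 0.015).

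The basement membrane partners of laminin moved in both directions in D8 against D2. Of 27 tested of 28, 11 were higher (40.7%, beside 47.3% of all tested genes) and 16 lower (59.3%, beside 23.1%). Among those higher, Frem1 and Col4a4 were under 1 CPM in both D2 libraries. Col4a3 passed the filter only through the D8 libraries. This favours a call as higher. Egflam, among those lower, passed only through the D2 libraries, which favours a call as lower. Papln, the matrix protein papilin, averaged 26.1 ± 0.379 CPM on D8, against 0.497 ± 0.00144 CPM on D2 (log2 difference 4.18, adjusted p = 5.5e-13 by limma). It too passed the filter only through libraries of later days, which favours a call as higher. Ntn1, the laminin-related guidance cue netrin-1, averaged 265 ± 28.5 CPM on D8, against 42.4 ± 1.14 CPM on D2 (2.61, adjusted p = 3e-12), and the fibulin gene Fbln1 119 ± 3.35 CPM on D8, against 25.7 ± 0.531 CPM on D2 (2.17, adjusted p = 1.2e-12). Its paralog Fbln2 went down to 1316 ± 72.4 CPM on D8, against 3545 ± 84.9 CPM on D2 (-1.43, adjusted p = 1.4e-10), as did Tinagl1 (-1.41, adjusted p = 4.7e-10). The gene with the most CPM in the list, Sparc, was at 4247 ± 260 CPM on D8, against 5032 ± 117 CPM on D2 (-0.25, adjusted p = 0.0077).

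Laminin receptors other than integrins also moved both ways, with a median near 0 in D8 against D2 (-0.026). Of 19 tested, 5 were higher (26.3%, beside 47.3% of all tested genes) and 8 lower (42.1%, beside 23.1%). Dmd, dystrophin, whose complex ties laminin to actin, averaged 136 ± 1.28 CPM on D8, against 32.6 ± 1.85 CPM on D2 (2.03, adjusted p = 2.5e-12 by limma), and its syntrophin partner Sntb1 24.6 ± 1.39 CPM on D8, against 1.33 ± 0.154 CPM on D2 (3.46, adjusted p = 1.3e-11). The adhesion molecule Mcam averaged 5.77 ± 0.724 CPM on D8, against 33.1 ± 0.588 CPM on D2 (-2.34, adjusted p = 9.5e-10), and the syndecan Sdc4 76.0 ± 1.86 CPM on D8, against 197 ± 6.29 CPM on D2 (-1.36, adjusted p = 5.9e-11). The gene with the most CPM in the list, Rpsa, had no call in D8 against D2, and it has processed copies in the genome between which reads may be split.

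Other integrin ligands had the most calls as lower in D6 against D4. Of 28 tested of 37, 2 were higher in D6 against D4 (7.14%, beside 25.2% of all tested genes), and 1 under a filter of 5 CPM. In that step 22 were lower (78.6%, beside 12.6%, median -0.59). In D4 against D2, 13 were higher (46.4%, beside 40.9%) and 11 lower (39.3%, beside 21.7%). In D8 against D2, 9 were higher (32.1%, beside 47.3%) and 13 lower (46.4%, beside 23.1%), with a median of -0.11. Spp1, osteopontin, a ligand of alphaV and alpha9 integrins, had 1389 and 1400 CPM on D2, 524 and 375 on D4, 86.6 and 130 on D6 and 82.5 and 86.7 on D8 (log2 difference in D8 against D2 -4.03, adjusted p = 8.4e-11 by limma). Tnc, tenascin-C, fell as well (-2.87, adjusted p = 7.6e-12), and the log2 differences of Thbs1, Ccn2 and Ccn1 were -3.23, -3.29 and -2.49. Tnn, tenascin-N, went up, with 62.9 ± 10.9 CPM on D8, against 11.6 ± 2.11 CPM on D2 (2.35, adjusted p = 4.6e-09). Fn1, the fibronectin ligand of alpha5 beta1, was chosen after its values were seen: it had 13032 and 12686 CPM on D2, 5909 and 6886 on D4, 3710 and 4423 on D6 and 3258 and 3822 on D8 (-1.87 in D8 against D2, adjusted p = 3.6e-09). Col1a1, the gene with the most CPM in the list, had no call in D8 against D2 (0.072, adjusted p = 0.58). The vitronectin gene Vtn was at 0 in 7 of 8 libraries.

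Of 15 tested surface proteins that partner integrins in the membrane, 9 were lower in D8 against D2 (60%, beside 23.1% of all tested genes). Another 4 were higher (26.7%, beside 47.3%), and the median was -0.63. Plaur, the urokinase receptor, averaged 10.3 ± 0.727 CPM on D8, against 47.5 ± 4.78 CPM on D2 (-2.10, adjusted p = 8.1e-10 by limma), and the proteoglycan Cspg4 64.9 ± 0.204 CPM on D8, against 178 ± 1.36 CPM on D2 (-1.44, adjusted p = 3.5e-11). Cd47, the integrin-associated protein, averaged 152 ± 4.29 CPM on D8, against 75.9 ± 0.179 CPM on D2 (1.00, adjusted p = 2.2e-09). The tetraspanin Cd151, a close partner of alpha3 and alpha6 integrins, was lowest on D4. It had 163 and 160 CPM on D2, 112 and 103 on D4, 173 and 155 on D6 and 177 and 163 on D8. Of the 32 tested members 5 also had their lowest mean on D4, Itga3 and Lama5 among them, while Itga6 was lowest on D8. Cd151 was singled out after its values were seen.

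**Figure D5:**
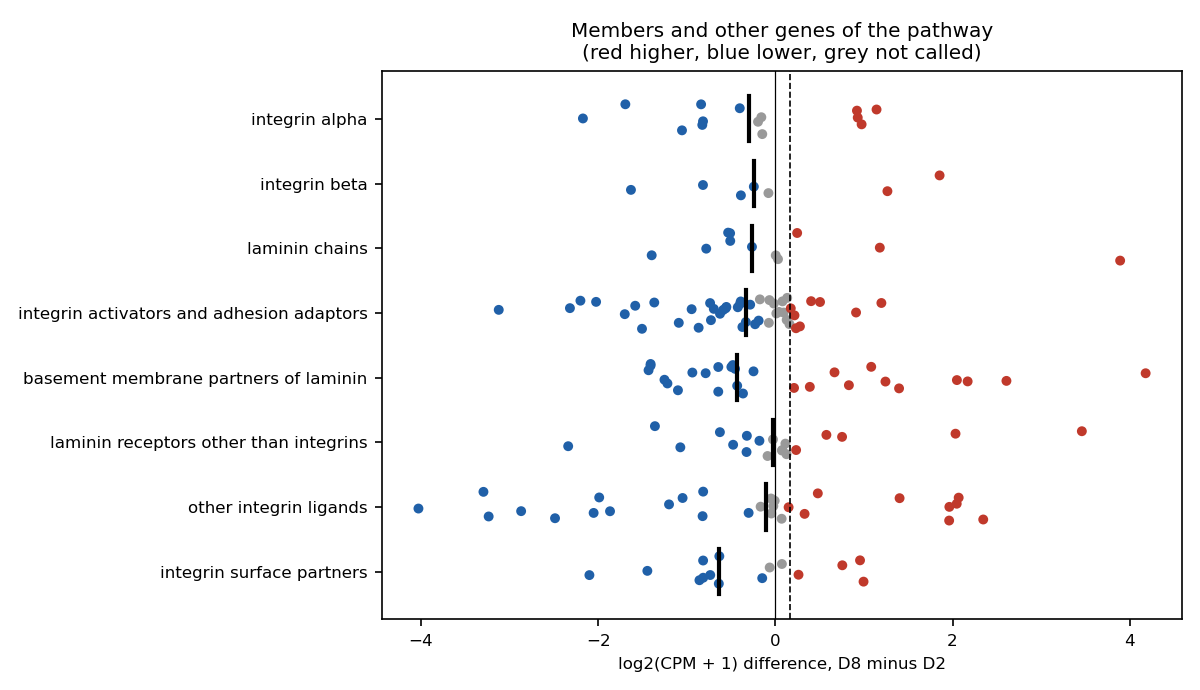
Difference in D8 against D2 on the log2(CPM + 1) scale for every tested member and every tested gene of the 5 lists, 1 point a gene, with colours for the call (red higher, blue lower, grey not called), a thick bar for the median of each row and a dashed line for the median of all tested genes (0.17). The medians of all 8 rows lie left of the dashed line, from -0.026 for laminin receptors other than integrins to -0.63 for surface partners.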

How the data were processed

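RNA-seq of total RNA (TRIzol, BGISEQ-500) gave 1 value per gene and library, and the deposited values are CPM, since every column sums to 1000000. Per the submitters' processing notes, reads were trimmed with Trimmomatic 0.39 and counted with featureCounts on mm10. For the aligner, annotation release, strand setting and multi-mapping reads, nothing is given in the sources used here. In each library, 99.35% or more of the values above 0 were multiples of 0.01 read at the recovered depth, and 52.8% to 54.1% were whole reads within 0.0002 read. The counting therefore held fractions of reads, and count models were not used. Symbols, coordinates and exon lengths came from GENCODE M21, which matched 32063 of the 32108 genes, and start-site windows from RefSeq.

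The 15358 genes that reached 1 CPM in 2 or more libraries went into a limma 3.58.1 fit (R 4.3.3) of log2(CPM + 1), with the day as factor, all 8 libraries in the fit, an intensity trend and Benjamini-Hochberg adjustment over all tested genes. A log2 difference on this scale understates the change of low genes. Mean ± SD are over the 2 libraries of a day. The alternatives were other pseudocounts, filters, scalings and models, and leaving out each library in turn, 17 in all. No per-sample column was without a sample.

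The members and the gene lists were chosen with earlier results of these data known. Values of 1 member and of 3 marker genes are not reported here; counts and sums include them. In each list the genes named are up to 6 called genes with the largest D8 minus D2 difference, up to 2 for each neighbouring step and the gene with the most CPM, with the exceptions marked. Genes named only for the libraries through which they passed the filter are further exceptions. Python 3.11.15 with pandas 2.3.3 and matplotlib 3.10.9 made the descriptions and figures.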

Additional observations from a re-analysis of the deposited data

How the results depend on the processing

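Over 79 called member changes and 17 alternatives, 1266 of 1338 values kept the call, 72 lost it and none changed sign, and 61 of the changes were called under every alternative. Calls in D8 against D6 were the least stable. Members higher in that step numbered 1 with no filter and 1 with no intensity trend, against 2, and 1 to 2 with a library left out. Members lower numbered 3 with no filter, 2 with no intensity trend and 5 with only the 2 days fitted, against 8, and 2 to 8 with a library left out. Over all genes that step gave 725 higher and 674 lower, against 210 and 134 with no filter and 323 and 210 with no trend, and 232 to 904 and 191 to 834 with a library left out. Scaling moved calls over all genes: D6 against D4 gave 1928 lower, against 2984 under median-of-ratios scaling and 2942 under quantile normalization, and D8 against D2 gave 5876 lower under quantile normalization, against 3549. Lama5 (-0.183) and Lamb2 (-0.158) had no call in D8 against D2 on the deposited scale and were called lower under median-of-ratios scaling, and Lamb2 was called higher (0.134) under quantile normalization. Deviations of libraries numbered alike from their day means correlated between days at -0.102 to 0.207. With 2 libraries a day, these correlations cannot show whether libraries numbered alike share a culture or batch. With a replicate block the members gave 12 higher and 12 lower in D4 against D2, 2 and 10 in D8 against D6 and 9 and 17 in D8 against D2, and all genes 797 and 796 in D8 against D6. The cause of these shifts was not tested. The 2 libraries a day set the precision, no library without the drug was analysed here, and the 5 members under the filter were not tested.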
